A study of Mus musculus with 16 samples.

Results

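Cycling epithelial cells were taken from the nipple, the duct and the terminal end bud (TEB), the club-shaped growing tip of a duct in the pubertal mouse mammary gland. A cell was a member when it held at least 5 UMIs (unique molecular identifiers, each standing for 1 captured RNA molecule) summed over *Mki67*, *Top2a*, *Birc5*, *Cdk1*, *Ccna2* and *Ube2c*, and at least 500 CPM (UMI counts scaled to the usual common total, spike-in rows left out) summed over the keratins *Krt5*, *Krt14*, *Krt8* and *Krt18*. Of 1419 cells in the deposited table, 1317 passed the limits on spike-in share, UMIs and genes, 1087 of those were epithelial by the keratin rule, and 179 were members. The members came as 9 cells from the nipple, 68 from the duct and 102 from the TEB. Another 620 epithelial cells held 0 UMIs of the 6 genes and served as the cells outside the cycle, and 288 held 1 to 4.

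A dividing cell copies its DNA in S phase and separates the copies in mitosis, and cyclins with their kinase partners time these steps. Many genes of DNA copying are read out from late G1 onwards, and many genes of mitosis from late S phase into G2. In puberty the mammary ducts lengthen by cell division that is most active in the TEBs, where outer cap cells and inner body cells give rise to the basal (myoepithelial) and luminal layers of the new duct.

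Single fragments were dissected from C57BL/6 mice at 5 weeks, digested to single cells and sorted into plates, and each cell was sequenced from the 3' end of its RNA with ERCC spike-ins (synthetic RNAs added in equal amount to each well). There were 4 nipple fragments (N21 to N24), 6 duct fragments (D31, D32, D51, D52, D61, D62) and 6 TEB fragments (T31 to T34, T42, T43). Per the study's description of these cells, the mice of all 3 locations carried *Krt14-Cre*, in which the promoter of the basal keratin gene drives Cre recombinase, and the membrane reporter *R26-mTmG*. The labels name no mouse for a fragment, so the fragment was the replicate and p-values measure only the spread between fragments, which may share a mouse.

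The deposited fragments held 1856141 to 5233122 UMIs each. Members held a median of 50544 UMIs and 4266 genes per cell, against 24039 UMIs and 2835.5 genes in the 0-UMI cells. In 9 of the 179 members (0 nipple, 3 duct, 6 TEB) the summed markers of other cell types exceeded the keratins. The same held for 106 of the 620 0-UMI cells (35 nipple, 42 duct, 29 TEB) and for 151 of all 1087 epithelial cells. All 95 well barcodes occurred in more than 1 fragment, as plate wells do, and no doublet caller was run.

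The 6 genes of the rule act at different points of the cycle. *Cdk1* is the kinase that drives entry into mitosis, *Ccna2* (cyclin A2) pairs with it and with Cdk2 from S phase on, and *Top2a* untangles DNA. *Mki67* coats mitotic chromosomes, *Birc5* (survivin) belongs to the chromosomal passenger complex, and *Ube2c* passes ubiquitin to mitotic cyclins. RefSeq promoter windows of 300 bases (GRCm38.p6, 250 before to 50 after the annotated start) were found for 5 of the 6 genes and not for *Ccna2*. They were searched on both strands for the cell cycle genes homology region, spelled TTTGAA or TTTAAA, and for CCAAT, which are known elements of cell cycle promoters. The windows below show the match of the first motif nearest to each start, on the gene's strand, with the motif in capitals (TTCAAA is TTTGAA on the opposite strand, and TTTAAA reads the same on both).
Cdk1: cgcggcgagTTTGAAactgctggc
Top2a: agataaaggTTCAAAtgaaactag
Ube2c: gggttgcaaTTCAAAcgcgggcgg
Mki67: ccgttttggTTTGAAtcgggcggg
Birc5: cggacatgcTTTAAAgaggtgccc

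These stretches lie at chr10:69352913-69352936 (minus strand, *Cdk1*), chr11:99024198-99024221 (minus, *Top2a*), chr2:164769891-164769914 (plus, *Ube2c*), chr7:135716463-135716486 (minus, *Mki67*) and chr11:117849008-117849031 (plus, *Birc5*). Their first capital stands 15, 23, 29, 98 and 220 bases before the annotated start in that order. All 5 windows held a match of the homology region, and 4 of 5 held CCAAT, *Birc5* being the exception. Over all 32851 promoter windows the shares were 27.6% and 37.4%. Over the 128 windows of the cell cycle lists described further on they were 50% and 64.1%. A match says only that these letters occur in the window.

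The members spanned a wide range of the values that chose them, which are given as a description with no test. Their summed UMIs of the 6 genes ran from 5 to 341 with a median of 23. Just inside the limit 8 cells held exactly 5 UMIs, and just outside it 21 epithelial cells held 4. The cell with the lowest keratin sum among members had 530 CPM, and the nearest cell outside that otherwise met the rule had 497 CPM. All 6 genes were detected in 50 members and only 1 of them in 20, so a member's place in the cycle could rest on few genes. *Cdk1* was found in 140 of 179 members, *Ube2c* in 126, *Top2a* in 123, *Birc5* in 119, *Mki67* in 98 and *Ccna2* in 92. *Mki67*, the gene most used to mark dividing cells, was therefore at 0 UMIs in many members.

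Cycling cells were least frequent at the nipple, more frequent in the duct and most frequent in the TEB. The 4 nipple fragments had 1.82%, 1.79%, 8.47% and 3.77% of their epithelial cells in the cycle (N21 to N24). The 6 duct fragments ranged from 10.2% to 18.2% with a median of 14.5%. The 6 TEB fragments ranged from 16.7% to 48.3% with a median of 23.7%. No nipple fragment reached the lowest duct fragment, while T34 (16.7%) and T32 (17.5%) lay within the duct range. The means were 3.96% ± 3.15 (SD, n = 4), 14.2% ± 3.31 (SD, n = 6) and 27.0% ± 12.0 (SD, n = 6). T42 stood highest, with 29 of 60 cells.

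**Figure D1:**
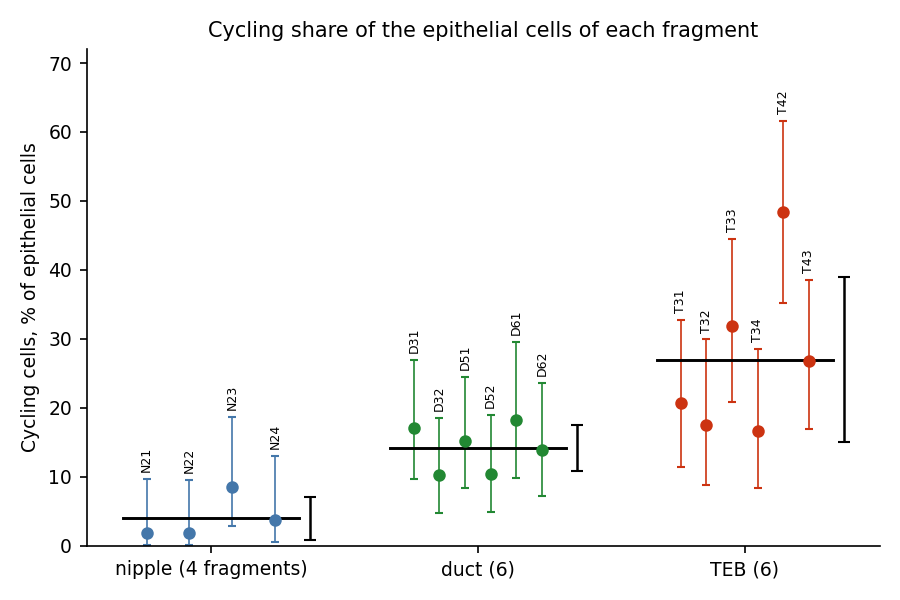
Percentage of epithelial cells in the cycle in each fragment of nipple, duct and TEB. Points are fragments with their exact 95% binomial intervals, horizontal lines are location means and bars are SDs; the nipple fragments lie between 1.79% and 8.47%, the duct fragments between 10.2% and 18.2%, and the TEB fragments between 16.7% and 48.3%.

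In two-sided exact permutation tests over fragments, with Benjamini-Hochberg adjustment over 9 comparisons, the duct share exceeded the nipple share by 10.2 percentage points (adjusted p = 0.0143), the TEB share exceeded the nipple share by 22.997 points (adjusted p = 0.0162) and the TEB share exceeded the duct share by 12.8 points (adjusted p = 0.0162). The smallest unadjusted p such tests allow is 0.00476 for 4 against 6 fragments and 0.00216 for 6 against 6. TEB cells held more UMIs, with a median of 38988 UMIs per epithelial cell against 25755 in the duct and 23361 in the nipple. UMIs per cell reflect both the RNA in a cell and the sequencing depth. Per ERCC UMI, the 0-UMI cells held a median of 127 UMIs in the TEB, 117 in the duct and 82.4 in the nipple. With each cell thinned to 5000 UMIs and at least 1 UMI of the 6 genes asked for, the shares were 4.86% ± 2.54 (SD, n = 4), 21.8% ± 6.86 (SD, n = 6) and 30.6% ± 11.5 (SD, n = 6), and the duct against TEB difference of 8.82 points no longer passed (exact permutation test, adjusted p = 0.166). Thinned to 10000 UMIs with at least 2 asked for, the means were 3.28%, 16.3% and 25.4%, and that difference was 9.10 points (exact permutation test, adjusted p = 0.0891). Both nipple differences passed under each thinning.

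The same count was taken in the cells below the keratin minimum. They were mostly rich in fibroblast RNA, with a median of 23791 CPM over the 6 fibroblast markers. They were not free of epithelial RNA, with a median of 549 CPM over 8 luminal markers. The highest single TEB cell among them held 13683 CPM over 11 basal markers, against a TEB median of 53.0 CPM. They are therefore no background free of epithelial cells. Of 230 cells below the keratin minimum, 11 (4.78%, exact 95% binomial interval 2.41 to 8.40%) held 5 or more UMIs of the 6 genes, at a median depth of 36326 UMIs. By location these were 2 of 119 nipple cells (1.68%, interval 0.204 to 5.94%), 2 of 14 duct cells (14.3%, interval 1.78 to 42.8%) and 7 of 97 TEB cells (7.22%, interval 2.95 to 14.3%). The pooled share of nipple epithelial cells was 4.04% (9 of 223, interval 1.86 to 7.52%), and its interval overlapped that of the keratin-low nipple cells. The pooled duct share of 14.0% (interval 11.01 to 17.4%) lay within the wide interval of the 14 keratin-low duct cells. The pooled TEB share of 27.1% (interval 22.6 to 31.8%) lay above the interval of the keratin-low TEB cells. Intervals cover counting error only.

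The share was then taken separately on the basal and the luminal side. Cells were placed on the side whose marker list (11 basal genes such as *Krt5*, *Acta2*, *Myh11* and *Trp63*, 8 luminal genes such as *Krt8*, *Krt19* and *Epcam*) had the higher mean z-score, a split added after the data were seen, and cells with more of other cell types' markers than keratins were left out. Of the 936 cells so placed, 7 lay near the limit. Cells in the cycle made up 2 of 97 basal-marker cells in the nipple (2.06%), 11 of 123 in the duct (8.94%) and 30 of 80 in the TEB (37.5%). On the luminal side they made up 7 of 90 (7.78%), 54 of 303 (17.8%) and 66 of 243 (27.2%).

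The basal-marker share differed between all 3 locations. Per fragment, the basal-marker share was 0%, 3.85%, 0% and 4.35% in the nipple (0 of 26 and 0 of 22 cells in N21 and N23), 5% to 13.3% with a median of 9.67% in the duct, and 16.7% to 66.7% with a median of 34.8% in the TEB. Every TEB fragment lay above every duct fragment. The difference between duct and TEB was 29.6 points (two-sided exact permutation test, adjusted p = 0.0130 over 6 comparisons), and the nipple lay 7.12 points below the duct and 36.7 points below the TEB (exact permutation test, adjusted p = 0.0190 for each). Leaving out any of N21, N22 or N24 raised the adjusted p of both nipple differences to 0.0714 in the same test.

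On the luminal side the nipple fragments had 4.35%, 0%, 21.7% and 4.17%, the duct fragments 11.9% to 25.0% with a median of 18.2%, and the TEB fragments 17.5% to 50% with a median of 22.3%. Here all 3 locations overlapped. None of the 3 differences passed: nipple to duct 10.7 points, nipple to TEB 20.2 points and duct to TEB 9.49 points (exact permutation test, adjusted p = 0.0743, 0.0571 and 0.113). N23 held 5 of the 7 nipple members on this side. Without N23 both nipple differences passed, at 15.4 and 24.9 points (exact permutation test, adjusted p = 0.0357 for each).

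**Figure D2:**
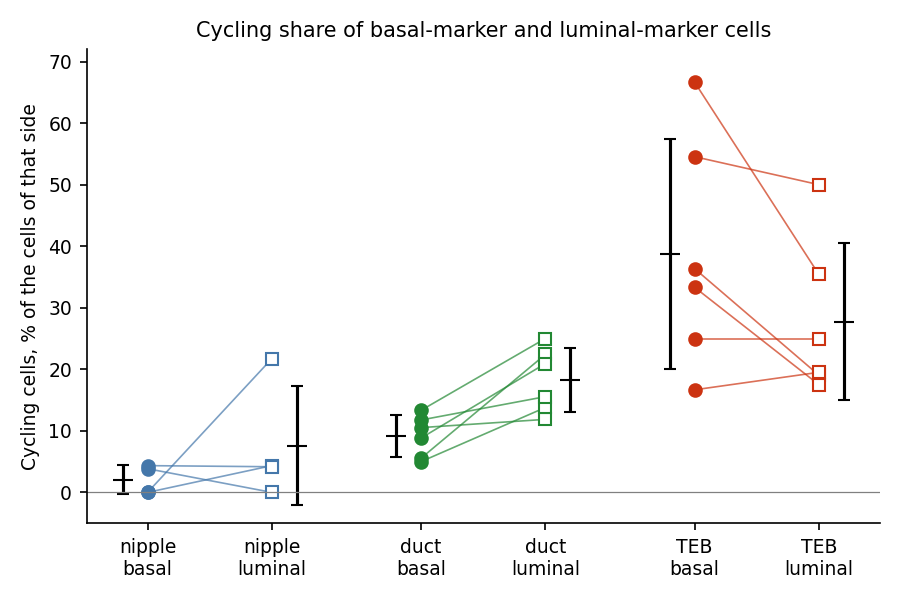
Percentage of basal-marker and luminal-marker cells in the cycle, by location. Each line joins the 2 sides of a fragment and black marks give the mean ± SD; in the duct every line rises from the basal to the luminal side, while in the TEB 4 of 6 fall.

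Within the duct the basal side was lower than the luminal side in 6 of 6 fragments, by 9.09 points on average (exact sign-flip permutation test, two-sided p = 0.03125, the smallest that 6 pairs allow, and 0.0625 without any 1 of them, the smallest that 5 pairs allow). Within the TEB it was higher in 4 fragments, lower in 1 and equal in 1, by 11.02 points on average (exact permutation test, p = 0.125). The difference between the sides itself differed between duct and TEB by 20.1 points (exact permutation test, adjusted p = 0.0130 over 3 comparisons). Basal-marker members of the TEB had little keratin RNA, with a median of 2154 CPM over the 4 keratins against 8754 CPM in luminal-marker members there, and 10746 and 10549 CPM in the duct. With a keratin minimum of 5000 CPM only 16 basal-marker TEB cells were left, and the basal-marker difference between duct and TEB became 1.07 points in the other direction (exact permutation test, adjusted p = 1). With the cells of other types' markers kept, the difference between the sides was 7.67 points (exact permutation test, adjusted p = 0.253).

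By keratins alone (more UMIs of *Krt5* and *Krt14* than of *Krt8* and *Krt18*, or the reverse), members made up 2 of 97 basal-keratin cells in the nipple, 5 of 86 in the duct and 8 of 20 in the TEB, and 7 of 126, 63 of 401 and 94 of 357 luminal-keratin cells. The luminal-keratin side also held basal-marker cells: 2 of 97 in the nipple, 37 of 123 in the duct and 60 of 80 in the TEB. The basal-keratin share was 35.3 points higher in the TEB than in the duct, on 2 to 4 such cells per TEB fragment (exact permutation test, adjusted p = 0.0143). The luminal-keratin difference of 10.1 points did not pass (exact permutation test, adjusted p = 0.0657). In the 10 nipple and duct fragments with at least 5 cells of each side, the basal-keratin share was 7.85 points lower than the luminal-keratin share and lower in 8 of 10 fragments (exact permutation test, p = 0.0117). Among luminal-keratin cells, the side with the higher score of estrogen receptor positive (ER+) markers such as *Esr1*, *Pgr* and *Prlr* and the side of ER- markers such as *Elf5* and *Kit* had 16.5% and 18.3% of cells in the cycle, a difference of 1.82 points that did not pass (exact permutation test, p = 0.594, 16 fragments). Of these 884 cells, 77 lay near the limit between the sides. Among luminal-marker cells the ER+ and ER- sides had 17.3% and 23.3%. That difference of 5.99 points did not pass either (exact permutation test, p = 0.302, 15 fragments).

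Members covered the whole span from S phase to mitosis. As a measure of phase, the UMIs of a list of S-phase genes were taken as a percentage of those of S-phase and G2/M genes together, with the 6 rule genes left out. Over the 179 members this S-list percentage ran from 0 to 68.4 with a median of 31.7. It was above 50 in 37 members, between 20 and 50 in 98 and below 20 in 44. Duct fragments averaged 32.4% ± 8.01 (SD, n = 6, 21.9 to 38.9) and TEB fragments 34.3% ± 3.48 (SD, n = 6, 30.0 to 39.1). The groups overlapped, and the difference of 1.95 points did not pass (two-sided exact permutation test, p = 0.576). D31 and D32 stood low within the duct, at 21.9% and 22.3%, against 36.0% to 38.9% in the other duct fragments. N23, the only nipple fragment with at least 3 members, averaged 41.0%.

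The rule genes were spread unevenly over these classes. *Ube2c* was at 754 CPM in the 44 members with the lowest S-list percentage, 273 CPM in the middle class and 66.6 CPM in the 37 members with the highest. *Birc5* was at 284, 209 and 104 CPM in the same order. *Cdk1* was at 213, 225 and 232 CPM and was detected in 37 of the 37 members richest in S-phase RNA, where *Mki67* was detected in 11. These pooled values are a description, since the same genes chose the cells.

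**Figure D3:**
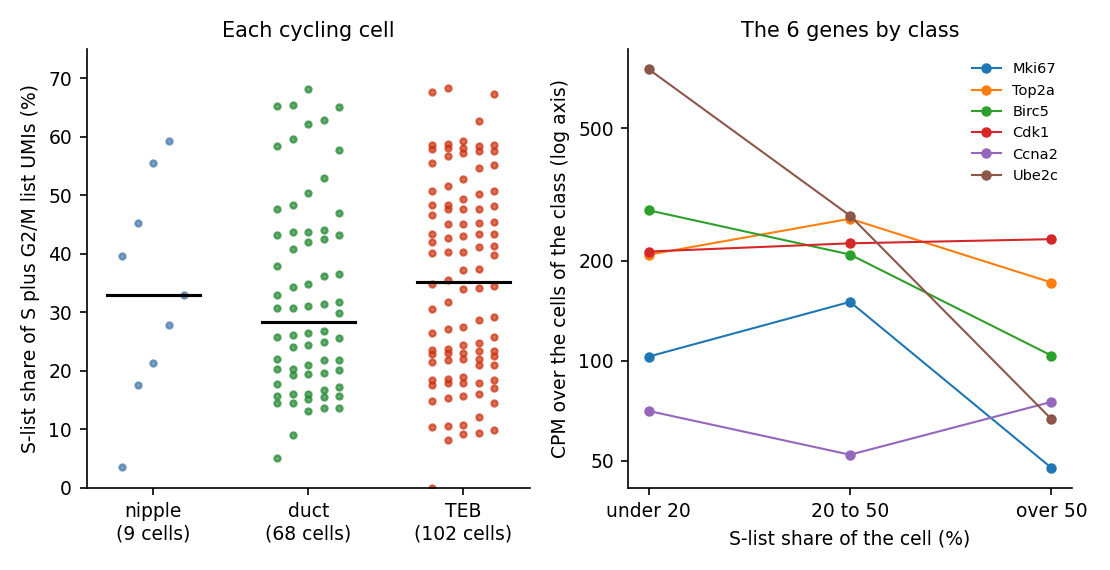
Left, the S-list percentage of each of the 179 cycling cells by location, with the median over the pooled cells of a location as a line. Right, CPM (log axis) of the 6 rule genes pooled over members below 20%, at 20 to 50% and above 50%; *Ube2c* goes from 754 to 66.6 CPM while *Cdk1* stays between 213 and 232 CPM.

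The amount of RNA per well was read from the endogenous UMIs per ERCC UMI. Members of the duct fragments had 196 ± 33.5 (SD, n = 6) and of the TEB fragments 177 ± 6.599 (SD, n = 6), and the difference of 18.7 did not pass (exact permutation test, p = 0.346). Members exceeded the 0-UMI cells of their own fragment in 6 of 6 duct fragments, by 1.31 to 2.11 times, and in 6 of 6 TEB fragments, by 1.30 to 1.54 times. A cell with more RNA passes a UMI minimum more easily, so this contrast is a description.

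RNA of DNA copying, chromatin assembly and mitosis was higher in members than in the 0-UMI cells of the same fragment while the lists of growth factor receptors, hormone response and kinase inhibitors had medians between -0.30 and 0.11 on the log2 scale. The rule chose the cells on this contrast, so the values are a description with no test. It was taken as the log2 ratio of CPM + 5 within each of 13 fragments (N23, 6 duct, 6 TEB), and the median over fragments is given. Of 8952 genes, 115 (1.28%) were higher by more than 1 in the median and higher in every fragment, 49 (0.547%) were likewise lower, and the median gene stood at 0.03. Without the size limit, 1.87% of genes were higher and 0.827% lower in every fragment.

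Among genes that load the replicative helicase onto DNA, 6 of 17 measured were higher in every fragment and the list median was 1.62 on the log2 ratio scale. *Mcm5*, a helicase subunit, was at 109 ± 42.9 CPM in members and 16.7 ± 15.9 CPM in 0-UMI cells (SD, n = 13), a log2 ratio of 2.39. *Cdc45*, which joins that helicase, was at 37.8 ± 24.8 and 1.95 ± 1.73 CPM (2.45). Of 23 replication fork genes 12 were higher in every fragment, with a list median of 1.47. They include *Prim1*, a primase subunit (2.65), *Rpa2*, which covers single-stranded DNA (2.69), and *Pcna*, the sliding clamp, at 281 ± 118 against 94.2 ± 33.2 CPM (1.47).

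Nucleotide supply was uneven. *Tyms*, thymidylate synthase, stood at 147 ± 52.3 against 17.5 ± 9.87 CPM (SD, n = 13, log2 ratio 3.18). *Rrm2*, the regulated subunit of ribonucleotide reductase, had a ratio of 3.68, but was higher in 12 of 13 fragments. The purine and pyrimidine genes *Ctps* (0.24), *Cad* (0.16) and *Shmt1* (0.06) were near 0, and 4 of the 17 genes of the list were higher in every fragment (median 1.01). Of 16 chromatin assembly genes 8 were higher in every fragment (median 1.62), among them *Uhrf1*, which maintains DNA methylation (2.74), and the histone variant *H2afz*, at 951 ± 250 against 270 ± 60.3 CPM (1.75). *Suz12*, a Polycomb subunit, was at -0.13.

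Mitotic genes made up the lists with the highest medians. Of 21 mitotic regulators 8 were higher in every fragment (median 1.97), with *Ccnb2* (cyclin B2) at 206 ± 73.6 against 10.4 ± 14.0 CPM (SD, n = 13, log2 ratio 4.22) and *Aurkb*, the Aurora B kinase, at 3.05. *Wee1*, which holds Cdk1 back, was an exception at -0.26. Of 37 spindle and kinetochore genes 21 were higher in every fragment (median 2.57). Examples are *Racgap1*, needed for cytokinesis, at 103 ± 34.9 against 2.38 ± 2.59 CPM (3.82), and *Smc2*, a condensin subunit (3.40).

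The genes with the largest ratios among those higher in every fragment were, beside the 6 rule genes, *2810417H13Rik* (4.72), which encodes the PCNA-associated factor, *Ccnb2*, *Hist1h2ae* (3.96), *Racgap1*, *Pbk* (3.71), *Cdca8* (3.70), *Ccnb1* (3.68), *Tacc3* (3.47) and *Esco2* (3.44). *Hist1h2ae* is a histone H2A gene of a multigene family whose copies share sequence, so its count is uncertain.

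Genes that set entry into the cycle differed less. None of 12 measured genes of G1/S control was higher in every fragment, and their median was 0.63. *Ccnd1*, cyclin D1, stood at 154 ± 59.7 CPM in members and 152 ± 82.0 CPM in 0-UMI cells (SD, n = 13, log2 ratio 0.06). *Ccnd2*, cyclin D2, was lower in 11 of 13 fragments (-0.95). It was mostly a gene of basal-marker cells, at 407 CPM in basal- and 2.66 CPM in luminal-marker 0-UMI cells of the duct. The 2 sides were not compared apart for it. The kinase inhibitor *Cdkn1a* (p21) was at 629 ± 117 against 826 ± 207 CPM (-0.28), and was lower in 11 of 13. The 4 measured kinase inhibitors had a median of 0.11 and the 7 antiproliferative genes one of -0.38, with *Klf4* at -1.07.

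The hormone and growth lists had medians between -0.30 and -0.06 over all members, against 0.03 for the median gene. The 8 hormone response genes had a median of -0.12, with *Areg*, the epidermal growth factor receptor ligand, at -0.01, and *Cited1*, a transcriptional cofactor, at 0.51 and higher in 11 of 13 fragments. The 9 growth factor receptors had a median of -0.30 with *Fgfr1* at -1.13. The 8 growth metabolism genes had one of -0.06, although the nucleolar protein gene *Ncl* was higher in 12 of 13 fragments (0.41) and *Myc* was at -1.07. The 11 immediate early genes, which dissociation of tissue is known to raise, had a median of -0.42. In none of these lists was a gene higher or lower in every fragment.

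**Figure D4:**
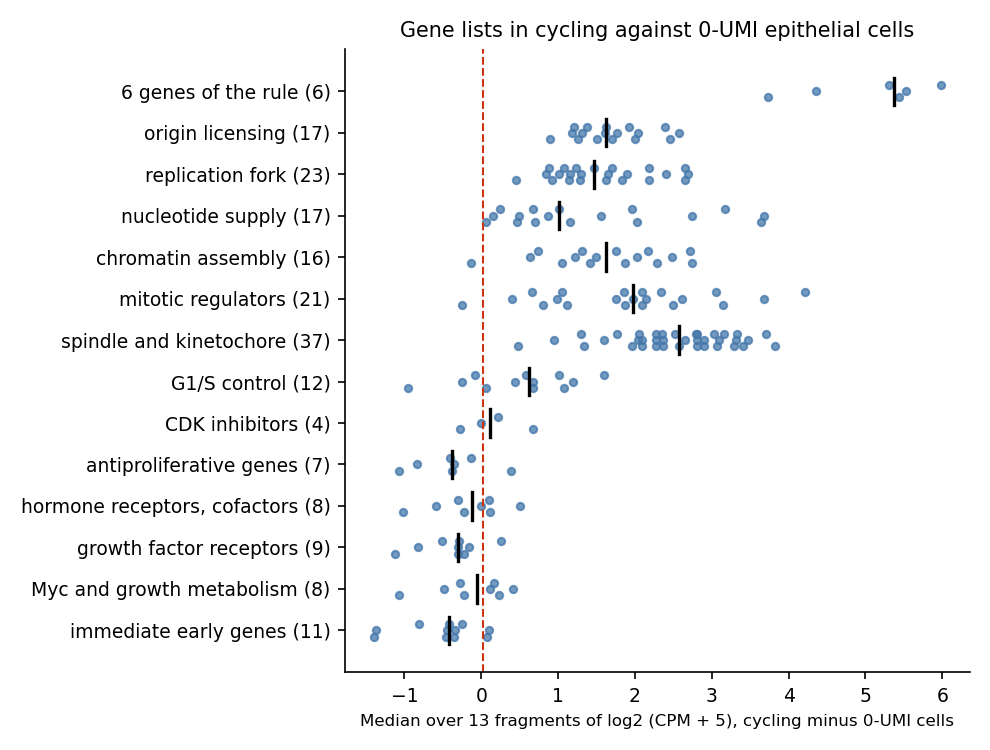
Log2 ratio of CPM + 5 between cycling cells and 0-UMI epithelial cells of the same fragment, by gene list. Points are genes (median over 13 fragments), black bars are list medians and the dashed red line is the median of all 8952 genes at 0.03; the replication, chromatin and mitosis lists lie between 1.01 and 2.57, and the growth, hormone and immediate early lists between -0.42 and -0.06.

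The 10 genes with the lowest ratios among those lower in every fragment included genes of matrix proteins such as fibrillin, elastin and collagens, and also the complement gene *C3*. *Fbn1* (fibrillin 1) stood at -3.02, *Dpt* at -2.91, *C3* at -2.83, *Rarres2* at -2.72, *Eln* (elastin) at -2.71, *Dcn* (decorin) at -2.65, *Col6a1* at -2.65, *Col1a2* at -2.62, *Fxyd1* at -2.53 and *Col3a1* at -2.51. The summed 6 fibroblast markers ranged from 140 to 2728 CPM over the members of 13 fragments and from 234 to 8953 CPM over the 0-UMI cells of 16. All 7 myeloid markers were detected in members, and their sum ranged from 28.4 to 1022 CPM over the members of 13 fragments and from 24.4 to 1305 CPM over the 0-UMI cells of 16, with a highest single member at 15945 CPM. Of 6 endothelial markers 3 were detected in members (*Pecam1*, *Cdh5* and *Kdr* were at 0), with a sum of 0 to 44.4 CPM per fragment and 154 of 179 members at 0. Of 5 lymphocyte markers 1 was detected, *Ptprc*, which all white blood cells carry (*Cd3e*, *Cd3d*, *Cd79a* and *Nkg7* were at 0), with a sum of 0 to 48.1 CPM and 165 of 179 members at 0. The 4 mast cell markers summed to 0 to 41.3 CPM and the 4 pericyte markers to 2.58 to 58.1 CPM over the members of a fragment. Without the cells in which other types' markers exceeded the keratins, 2 genes were lower in every fragment past the same limit, and 113 were higher.

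Within luminal-marker cells alone (12 fragments, 8417 genes) 68 genes were higher (0.808%) and 4 lower (0.0475%) by the same limits. There the list medians were 1.48 for helicase loading, 1.57 for the fork, 1.66 for chromatin assembly, 1.79 for mitotic regulators and 2.24 for spindle and kinetochore, and the median gene stood at 0.03. Each of these lists again lay above the median gene. The hormone response, growth factor receptor and growth metabolism lists had medians of -0.33, -0.32 and 0.16 in these cells. Of their measured genes 1 of 8, 2 of 8 and 5 of 7 lay above 0. The 8 ER+ markers had a median of -0.49, with 1 above 0.

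Between cycling cells of the duct and of the TEB 53 genes passed the test of difference. They included *Ccnd2* of the G1/S control list, found mostly in basal-marker members. No gene of the replication, chromatin and mitosis lists was among them. UMIs of the members were summed per fragment and compared by edgeR's quasi-likelihood test with Benjamini-Hochberg adjustment over 6619 genes. It called 53 genes (0.801%) at an adjusted p under 0.05, 29 higher in the TEB (0.438%) and 24 higher in the duct (0.363%), and the median log2 difference over all genes was -0.02. Of the 53, 34 had no overlap of fragments, a property of 1.03% of all genes. Differences are TEB minus duct on the log2 scale, and CPM here are over the genes tested with TMM scaling.

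The 6 rule genes chose the cells, so their levels in members of each location are a description with no test. Their log2 differences lay between 0.02 and 0.68, the last for *Cdk1*, with 63.7 to 224 CPM in the duct fragments and 207 to 354 CPM in the TEB fragments. No member of the helicase loading (15 tested), fork (23), nucleotide (16), chromatin (16), mitotic regulator (18) or spindle and kinetochore list (36) was called. Their median log2 differences lay between 0.06 and 0.60. Of 7 G1/S genes 1 was called: *Ccnd2* ranged from 9.32 to 115 CPM in the duct and from 104 to 316 CPM in the TEB, which overlap, a difference of 1.89 ± 0.43 (SE; adjusted p = 0.0384, edgeR's quasi-likelihood test). Pooled over cells, *Ccnd2* was at 230 CPM in basal- and 5.25 CPM in luminal-marker duct members. In the TEB it was at 615 and 2.72 CPM, so the luminal side ran the other way at few CPM.

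*Wif1*, *Sostdc1* and *Sema3b* had the largest differences among the named genes higher in TEB members. *Wif1* (chr10:121033960-121100650), which binds Wnt ligands outside the cell, was listed at 0 CPM in D31, D51, D52 and D62, at 2.77 CPM in D32 and at 1.62 CPM in D61. The TEB fragments ranged from 17.8 to 80.1 CPM with a median of 70.5. That is 2 UMIs in the duct and 340 in the TEB, a ratio of 89.7 after scaling by the totals with a counting interval of 24.7 to 744 (edgeR's quasi-likelihood test, adjusted p = 3.09e-04). *Sostdc1* (chr12:36314139-36318452), a secreted antagonist of bone morphogenetic protein and Wnt signals, was at 0 CPM in 5 duct fragments and 8.68 CPM in D51, against 23.01 to 98.2 CPM with a median of 68.8 in the TEB. *Sema3b*, a secreted semaphorin, was at 0 to 16.2 CPM in the duct (median 2.17) and 56.1 to 285 CPM in the TEB (median 87.8), a log2 difference of 4.50 ± 0.71 (SE). In each of these genes the lowest TEB fragment lay above the highest duct fragment, which the rule for naming genes required.

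The other named genes higher in the TEB differed by 2.39 to 4.50. *Fabp5* (chr3:10012548-10016607), a fatty acid binding protein, was at 9.32 to 74.2 CPM in the duct (median 40.0) and 141 to 361 CPM in the TEB (median 273), a difference of 2.75 ± 0.37 (SE). *Gpx2*, a glutathione peroxidase, was at 0 to 10.9 CPM against 28.2 to 77.6 CPM. *Igfbp4*, which binds insulin-like growth factors, was at 13.03 to 42.1 CPM in the duct (median 27.6) and 60.4 to 230 CPM in the TEB (median 141), a difference of 2.43 ± 0.39 (SE). *Emb*, the cell surface glycoprotein embigin, was at 9.70 to 80.3 CPM against 155 to 219 CPM. The others chosen by the rule were *A230065H16Rik* (4.50), the imprinted gene *Mest* (3.58), the LIM-domain gene *Csrp2* (3.28), the glycosyltransferase gene *Gyltl1b* (2.46) and the keratin gene *Krt23* (2.39). The 12 adjusted p values from edgeR's test lay between 3.09e-04 and 0.0469.

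Among the 11 named genes higher in duct members, *Cnn1*, *Csf1* and *Igfbp3* had the largest differences. *Cnn1* (chr9:22099216-22109630), the calponin of smooth muscle and myoepithelium, was at 64.6 to 328 CPM in the duct (median 161) and 4.26 to 45.0 CPM in the TEB (median 19.99), a difference of -2.96 ± 0.55 (SE; adjusted p = 0.0157, edgeR's quasi-likelihood test). *Mylk*, the myosin light chain kinase, was the other called gene of 9 tested basal markers (-2.46, adjusted p = 0.0159 in that edgeR test). *Csf1*, the macrophage colony stimulating factor, was at 29.1 to 319 CPM in the duct (median 57.3) and 5.75 to 22.6 CPM in the TEB. *Igfbp3* was at 35.0 to 161 against 2.59 to 31.6 CPM.

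The remaining genes differed by less. *Aqp5*, a water channel, was at 305 to 709 CPM in the duct (median 339) and 41.4 to 203 CPM in the TEB (median 107), a difference of -1.92 ± 0.34 (SE). *Pcx*, pyruvate carboxylase, was at 40.1 to 86.8 against 0 to 17.7 CPM. *Ctsd*, the lysosomal protease cathepsin D, was at 730 to 1100 CPM in the duct and 374 to 662 CPM in the TEB (-0.85). *Plaur*, the urokinase receptor, was at 328 to 644 against 155 to 297 CPM (-1.31), and *Sdc4*, the cell surface proteoglycan syndecan 4, had the smallest standard error of the 11 (-0.90 ± 0.13). *Gas6* (-1.37), *Vps37b* (-1.06) and *Pttg1ip* (-1.02) made up the rest. *Myc* was called too, with a difference of -1.40 ± 0.33 (SE; adjusted p = 0.0431, edgeR's quasi-likelihood test), though its fragments overlapped.

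**Figure D5:**
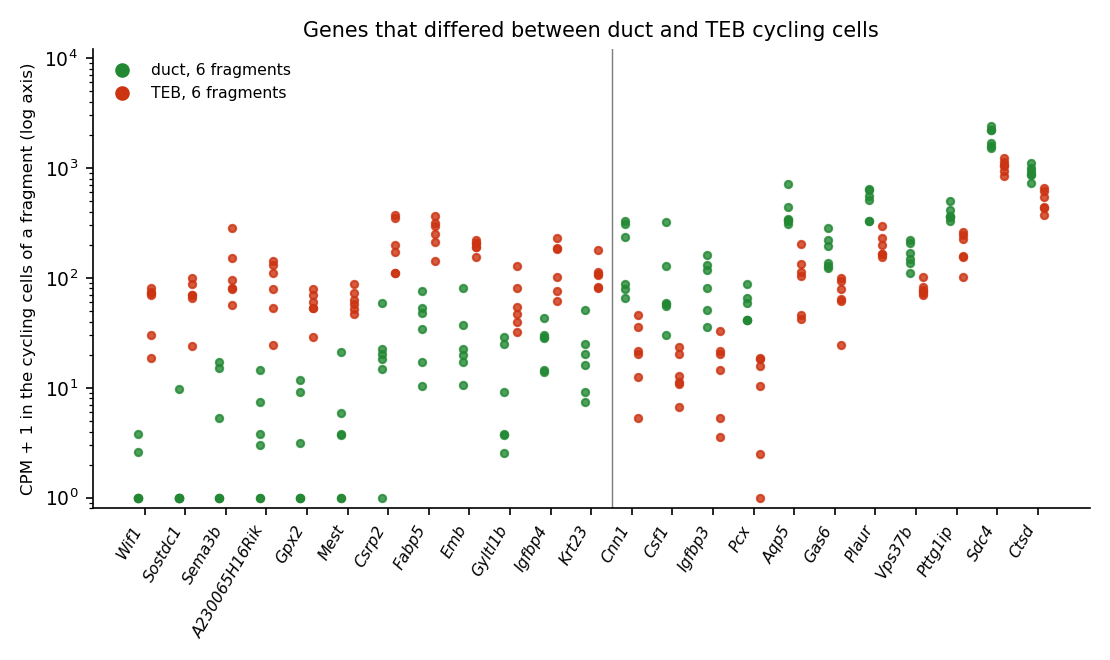
CPM + 1 (log axis) of genes named by the rule, summed over cycling cells of each duct and TEB fragment. Each point is a fragment; for *Wif1* the duct fragments lie at 0 to 2.77 CPM and the TEB fragments at 17.8 to 80.1 CPM, and for *Cnn1* at 64.6 to 328 and 4.26 to 45.0 CPM.

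The members of the 2 locations differed in their sides: 11 basal-marker against 54 luminal-marker cells in the duct, and 30 against 66 in the TEB. All 12 named genes higher in the TEB were higher in basal- than in luminal-marker members in 6 of 6 TEB fragments. *Wif1* was at 172 CPM in basal-marker TEB members, 1.24 CPM in luminal-marker TEB members and 4.94 CPM in basal-marker duct members. *Fabp5* was at 824, 35.6 and 84.0 CPM in that order. Over the 29 genes called higher in the TEB, 25 were higher in basal- than luminal-marker TEB members. All 29 were higher in basal-marker TEB than in basal-marker duct members. On the luminal side 25 of the 29, and 11 of the 12 named genes, were higher in TEB than in duct members. These are pooled values of 11 basal-marker and 54 luminal-marker duct cells, with no test. The genes were called on these same cells, which largely sets the direction between locations. The matching shares over all genes, between sides or locations, were not taken, so these counts are a description.

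Basal genes themselves had other levels in the basal-marker members of the 2 locations. *Trp63*, the transcription factor of basal epithelium, was at 95.01 CPM in them and 7.41 CPM in basal-marker duct members. *Cnn1* was at 71.3 and 1317 CPM, *Myh11*, the smooth muscle myosin, at 20.7 and 603 CPM, and *Krt14* at 467 and 3422 CPM. Of the 24 genes called higher in the duct, 10 were higher in basal- than in luminal-marker TEB members, and 0 were higher in the TEB than in the duct on either side. These genes too were called on the same cells, and the matching shares over all genes were not taken.

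With luminal-marker members only, edgeR's quasi-likelihood test called 0 of 5159 genes, with 409 at an unadjusted p under 0.05. Of the 53 genes, 26 could be tested there, and all 26 kept their direction at a median absolute log2 difference of 0.84, against 1.10 for the same genes in all members. Luminal-marker members are most of the cells on which the 53 genes were called. The kept direction was therefore largely set by that choice and is a description. Basal-marker members alone could not be compared, since 1 duct fragment held at least 3. With a keratin minimum of 5000 CPM the differences of *Fabp5* and *Igfbp4* turned to -0.17 and -0.29 and neither passed.

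The 0-UMI epithelial cells were compared between duct and TEB in the same way, and edgeR called 59 of 8025 genes (0.735%). Of the 53 genes called in members 51 were tested there and 9 were also called, 3 higher in the TEB and 6 higher in the duct. The direction was the same in 24 of 27 genes higher in the TEB and in 24 of 24 higher in the duct. The matching share over all genes was not taken, so these counts are a description. *Gpx2*, *Fabp5*, *Cnn1*, *Plaur* and *Pttg1ip* were among the genes called in both.

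Whether a location difference was itself different in members and 0-UMI cells was asked by the state by location term of edgeR's quasi-likelihood test with the fragment as a block. Of 8640 genes 3 passed (0.0347%), and 430 had an unadjusted p under 0.05. *Crispld2*, which encodes a secreted cysteine-rich protein, was at 24.9 to 137 CPM in duct members (median 78.0) and 280 to 570 CPM in TEB members (median 384), but at 171 to 322 and 129 to 449 CPM in the 0-UMI cells. The members did not overlap between locations and the 0-UMI cells did, a term of 2.28 ± 0.35 (SE; adjusted p = 0.0118). *Igfbp4* had the same shape, with 12.3 to 38.1 and 57.8 to 227 CPM in members against 62.1 to 233 and 88.2 to 373 CPM in 0-UMI cells (2.28 ± 0.41, adjusted p = 0.0259 in edgeR's test). Its call was kept in 8 other settings and lost in 9. Pooled over basal-marker cells, *Igfbp4* was higher in the TEB in both states. It was at 133 CPM in duct and 454 CPM in TEB members, and at 171 and 384 CPM in 0-UMI cells. Luminal-marker cells were at 7.51 and 16.1 CPM in members and 4.83 and 7.54 CPM in 0-UMI cells.

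The other gene that passed was *Reg3g*, an antimicrobial lectin. It ranged from 0 to 10.3 CPM in duct members and 0 to 36.4 CPM in TEB members, and from 0.562 to 154 CPM in duct and 0 to 1.28 CPM in TEB 0-UMI cells (term 8.25 ± 1.49 SE; adjusted p = 0.0302, edgeR's quasi-likelihood test). *Reg3g* rested on few cells. On the luminal side it had 66 UMIs in 5 of 66 TEB members and 1 UMI in 1 of 94 TEB 0-UMI cells. In the duct it had 15 UMIs in 8 of 54 members and 471 UMIs in 22 of 140 0-UMI cells. T33 alone gave the TEB members their 36.4 CPM, with a TEB median of 2.92 CPM. The call was kept in 10 other settings and lost in 7. *Emb* and *Afap1* came next by p and did not pass (adjusted p = 0.201 and 0.399 in edgeR's test). The 0-UMI cells had other sides than the members, 88 basal-marker to 140 luminal-marker cells in the duct and 25 to 94 in the TEB, and *Crispld2* was at 1131 CPM in basal- and 96.2 CPM in luminal-marker TEB members. Within luminal-marker cells the term passed for 1 gene, *Reg3g* (9.004, adjusted p = 0.00391 in edgeR's test), and *Crispld2* was at 1.88. Thinned to 5000 UMIs the term passed for 0 genes (153 at an unadjusted p under 0.05, edgeR), and without T43 also for 0 (447 at an unadjusted p under 0.05).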

How the data were processed

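Single-cell RNA-seq of 16 fragments (4 nipple, 6 duct, 6 TEB) was analysed. Per the labels and methods, the authors handled barcodes and UMIs by UMI-tools and adapters by Trim Galore, checked reads with FastQC, mapped them to mm10 with STAR (unique alignments) and assigned them to genes with featureCounts. The authors deposited raw UMI counts per gene and cell, with no normalization.

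Kept cells had 5000 to 120000 UMIs, 200 to 6000 detected genes and an ERCC share of 5% or less. UMIs were summed per fragment with at least 3 cells of a state and tested with edgeR 4.0.16 in R 4.3.3 (TMM, filterByExpr, robust quasi-likelihood fit, Benjamini-Hochberg adjustment, threshold 0.05), and DESeq2 1.42.0 as an alternative. Other steps used Python 3.11.15 with scipy 1.17.1. Marker sides used z-scores of log2(CPM + 10), and cells within 0.25 of equal scores were counted as near the limit. Thinned shares are means of 10 draws. The genes named are the rule genes and keratins, members of the gene lists, up to 12 genes called in each direction between duct and TEB (at least 50 CPM in the higher location, no overlap of fragments; 11 met this for the duct), the 15 highest and 10 lowest genes against 0-UMI cells (same sign in every fragment, at least 50 CPM), and the 5 with the smallest p of the state by location term. Positions are from GENCODE on GRCm38. Members and lists were chosen with earlier results of these data known. Location tests among nipple members could not be run, since 1 nipple fragment held at least 3. Both edgeR tests were first tested on simulated data with 200 changed genes. The duct against TEB test recovered 51.5% of them, and 66.7% of those changed by a log2 of 2 or more. The state by location test recovered 32.5% and 43.2%. Of the calls, 3.74% and 1.52% were false. A gene that was not called can therefore still differ.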

Additional observations from a re-analysis of the deposited data

Results flagged for a closer look

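In 71 groups of 4 to 10 fragments tested for a value far from the others, 7 stood apart, where chance alone sets apart about 1 in 20. Among the cycling cells of the duct fragments, D51 was high for *Sostdc1* (8.68 CPM, the others at 0) and *Emb* (80.3 CPM), D62 for *Mest* (20.1 CPM), *Csrp2* (58.2 CPM) and *Csf1* (319 CPM), and D32 for *Aqp5* (709 CPM). Among the TEB fragments T43 was high for *Krt23* (177 CPM). These genes were named only where duct and TEB fragments did not overlap. That choice placed each of these values on its own location's side of the difference.

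The gap between the basal-marker and luminal-marker shares in the cycle differed between locations, at -20.1 percentage points for duct minus TEB (exact permutation test, 6 against 6 fragments, adjusted p = 0.0130). The state by location term of edgeR's quasi-likelihood test differed from 0 for *Crispld2* (2.28), *Igfbp4* (2.28) and *Reg3g* (8.25). For *Crispld2* and *Igfbp4* the members were higher in the TEB than in the duct while the 0-UMI cells overlapped, and for *Reg3g* the duct 0-UMI cells were the highest group. What these differences rest on was not tested beyond the comparisons given.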

How the results depend on the processing

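The number of cells limited the nipple: 9 members allow no comparison of genes, and a share there rests on 1 to 5 cells per fragment. Of the shares in all epithelial cells, the duct minus TEB difference did not pass at 3 UMIs (-13.1), 10 UMIs (-10.6), a keratin minimum of 5000 CPM (-10.2) or thinning to 5000 or 10000 UMIs (-8.82, -9.10). At 10 UMIs the nipple differences from duct (-6.15) and TEB (-16.8) did not pass either. In basal-keratin cells nipple minus TEB did not pass at 10 UMIs (-34.1) and 5000 CPM (-11.3), nor duct minus TEB at 10 UMIs (-31.1) and 5000 CPM (-8.34). Fragments 31 to 34 alone, 2 duct against 4 TEB, cannot go below p = 0.0667 in an exact permutation test and could not pass. There duct minus TEB was -8.02 in all epithelial cells, -31.3 in basal-keratin cells and -30.2 in basal-marker cells. In luminal-keratin cells nipple minus duct did not pass at 10 UMIs (-6.29), 5000 CPM (-11.0) and without cells of other types' markers (-11.0), nor nipple minus TEB at 10 UMIs (-14.9) and 5000 CPM (-18.6).

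In basal-marker cells, 5000 CPM gave -7.36 for nipple minus duct, -6.28 for nipple minus TEB and 1.07, in the other direction, for duct minus TEB, none passing. In luminal-marker cells nipple minus duct passed at 3 UMIs (-18.1) and thinned (-17.3, -12.7), and nipple minus TEB likewise (-26.2, -24.1, -19.6). The basal minus luminal gap passed for nipple minus TEB at 3 UMIs (-21.2) and at a UMI minimum of 10000 (-19.7), turned for nipple minus duct at 10 UMIs (-1.32), and did not pass for duct minus TEB at 10 UMIs (-13.0) or with cells of other types' markers kept (-7.67). With those cells kept the gap within the TEB turned to -2.80.

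The counts of genes between duct and TEB members moved. DESeq2 called 115 (58 higher in TEB, 57 in duct), no filter 119 (64, 55), thinning 6 of 1122 tested (3, 3), luminal-keratin members 12 (8, 4), 10 UMIs 24 (11, 13), fragments 31 to 34 28 (16, 12), and luminal-marker members 0 (0, 0; 409 at an unadjusted p under 0.05, edgeR). With 2 members per fragment 14 were higher in the duct. A fit of the compared locations alone is not listed, as N23 alone stood for the nipple. The state by location term passed for 53 genes with no filter, 0 thinned (153 at an unadjusted p under 0.05, edgeR) and 1 in luminal-marker cells. Against 0-UMI cells, thinning left 52 higher and 26 lower, luminal-marker cells 68 and 4, and without cells of other types' markers 2 were lower. In the last 2 settings *Dpt* turned to 0.038 and 0.064 and *Col3a1* to 0.17 and 0.058, *Col1a2* to 0.020 in luminal-marker cells and *C3* to 0.19 in the other. *Fabp5* and *Igfbp4* turned to -0.17 and -0.29 at 5000 CPM. Over all settings the named genes between duct and TEB kept direction and call in 436 cases, lost the call in 110 and turned in 2. Some named genes lost the call more often than they kept it. These were *Pcx* (lost in 17 settings, kept in 7), *Gyltl1b* (17 and 6), *Vps37b* (16 and 9) and *Gas6* (13 and 12). The cause was not tested.

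Without 1 fragment, the shares in all cells ranged from -11.7 to -9.40 (nipple minus duct), -25.1 to -18.7 (nipple minus TEB) and -14.9 to -8.52 (duct minus TEB). In basal-keratin cells they ranged from -4.01 to -2.35, -41.4 to -31.4 and -38.3 to -28.3, in luminal-keratin cells from -13.9 to -9.48, -24.0 to -17.2 and -12.2 to -6.09 (duct minus TEB passing without T32 or T34), in basal-marker cells from -7.95 to -6.29, -41.1 to -31.1 and -34.0 to -24.0, and in luminal-marker cells from -15.4 to -8.17, -24.9 to -15.7 and -11.5 to -5.04. The basal minus luminal gap ranged from 0.457 to 8.99, -19.7 to -11.1 and -22.9 to -16.1. The paired keratin difference ranged from -9.11 to -6.92, the ER+ minus ER- difference from -3.56 to -0.136, and RNA content from 9.50 to 24.4. The S-list percentage ranged from -3.26 to 0.135, turning without D31 (0.135) or D32 (0.0566). Genes called ranged from 30 to 78, with 34 without T31, 34 without T42 and 30 without T43. Those higher in TEB ranged from 16 (without T43) to 48 (without D62), and those higher in duct from 12 (without T42) to 30, with 15 without D32 or T33 and 14 without T31 or T43. The state by location count ranged from 0 (without T43; 447 at an unadjusted p under 0.05, edgeR) to 6 (without D62), with 1 without D32, D51, T31 or T33.

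Duct and TEB labels share the numbers 31 and 32. Deviations of same-numbered fragments correlated at 0.06 and 0.03 over 6619 genes, under the limit of 0.1 set for treating them as pairs, and with 2 pairs this leaves unknown whether they share a mouse or a batch. With the number as a replicate block the share difference was -5.44 (exact permutation test, p = 0.5, the smallest that 2 pairs allow, so that it could not pass), 80 genes were called and 40 were higher in the duct.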
